A study of Homo sapiens with 9 samples.

Results

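The mitochondrial ribosomal protein genes are the nuclear genes whose symbols read MRPL or MRPS followed by a number and, in a few cases, a letter from A to C. All 77 symbols of that form in the deposited table reached at least 10 counts in 3 or more libraries, so the group held 77 of 25370 listed symbols, 48 named for the large subunit (MRPL) and 29 for the small subunit (MRPS). All 77 also passed the filter on low counts that left 15089 genes for testing. The symbols were the only criterion beside that minimum, so the rule itself used no difference between conditions.

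RNA came from OCI-Ly1, an established human cell line of diffuse large B-cell lymphoma, grown in IMDM with fetal bovine serum and antibiotics. JIB-04, a compound that inhibits histone demethylases of the Jumonji family, was given for 48 h at 150 nM or at 500 nM, and the third group received the vehicle DMSO. Each group had 3 libraries of total RNA depleted of ribosomal RNA, 9 in all, from this 1 cell line. Separate cultures for the replicates are not mentioned in the labels, and the p-values therefore reflect only how much these libraries differ, possibly for technical reasons.

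Mitochondrial ribosomes sit in the mitochondrial matrix and translate the few proteins that mitochondrial DNA encodes, all of them parts of the oxidative phosphorylation machinery. Their RNAs are made from mitochondrial DNA, whereas every one of their proteins is encoded in the nucleus, translated in the cytosol and imported. Some of these proteins have a counterpart in the bacterial ribosome and the others were gained in the mitochondrial lineage.

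Libraries held 28476845 to 57198613 counts, the shallowest being DMSO replicate 2, and the mitochondrial ribosomal protein genes took 0.505 to 0.562% of them. Of the B-cell markers, 7 of 7 were present, with a summed level of 1590 to 1660 CPM (counts scaled to the size of the library) in DMSO, 1610 to 1660 CPM at 150 nM and 1380 to 1450 CPM at 500 nM. The 5 T-cell markers, all detected, summed to 18.7 to 21.4 CPM in DMSO, 14.2 to 16.9 CPM at 150 nM and 7.8 to 8.44 CPM at 500 nM. Members of both lists moved in both directions between DMSO and 500 nM. CD3G went from 11.3 to 14.2 CPM to 4.56 to 5.21 CPM, and CD8A from 0.234 to 0.330 CPM to 0.430 to 0.799 CPM. MS4A1 went from 495 to 552 CPM to 372 to 392 CPM, and PAX5 from 205 to 218 CPM to 231 to 256 CPM. Sums of the myeloid and of the epithelial or stromal lists were at most 6.12 CPM in any library, and S100A9 and HBB were at 0 in all 9. The part of these marker differences in the results on the mitochondrial ribosome was not tested. CPM values are relative to the other RNA of a library, so fewer cells and less RNA per cell cannot be told apart in them.

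Baseline levels were compared between genes as CPM per kilobase of transcript. In DMSO the highest were MRPL15, with a mean of 155 ± 5.39 CPM per kilobase (SD, n = 3), MRPL51, with 148 ± 10.3, and MRPL3, with 137 ± 5.26. The libraries of MRPL51 overlapped those of both others, so the order of these neighbours is not resolved beyond the spread. MRPS34 had the highest mean of the small subunit symbols, at 118 ± 2.90 CPM per kilobase, and its libraries overlapped those of MRPS28, at 116 ± 13.2, so their order is not resolved either. The lowest were MRPL1, a protein of the mobile stalk beside the exit site for tRNA, at 9.90 ± 1.67, MRPS18C at 6.85 ± 0.431, and MRPS24 at 0.819 ± 0.0578 CPM per kilobase. MRPS24 held only 8 to 34 counts per library, and it shares exons with the read-through gene URGCP-MRPS24, which the table lists at 0 in all 9 libraries, so its level and its changes are uncertain. The medians of the subunits in DMSO lay close together, at 52.9 CPM per kilobase for the large and 50.2 for the small.

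At 500 nM against DMSO, 50 of the 77 genes fell and 6 rose (edgeR quasi-likelihood test, Benjamini-Hochberg adjusted p under 0.05), and 21 did not pass the test. Over all tested genes, 52% were called, 25.6% lower and 26.3% higher, whereas 64.9% of the mitochondrial ribosomal protein genes were called lower and 7.79% higher. Their median log2 fold change was -0.26, beside 0.01 over all tested genes. The falls were small: 6 of the 56 called genes changed 1.5-fold or more, all of them downward, and none changed 2-fold. No overlap between the 2 groups was seen for 51 genes that were lower at 500 nM and for 7 that were higher, beside 29% and 30.2% of all tested genes. Under scaling by total counts, which moved the median of all genes from 0.01 to 0.15, 32 of the 77 fell and 12 rose. Of all 15089 tested genes, 2514 (16.7%) were then called lower and 5716 higher. The higher share of all calls went from 50.7% to 69.5%. The median of the mitochondrial ribosomal protein genes minus that of all genes was -0.27 under both scalings.

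**Figure D1:**
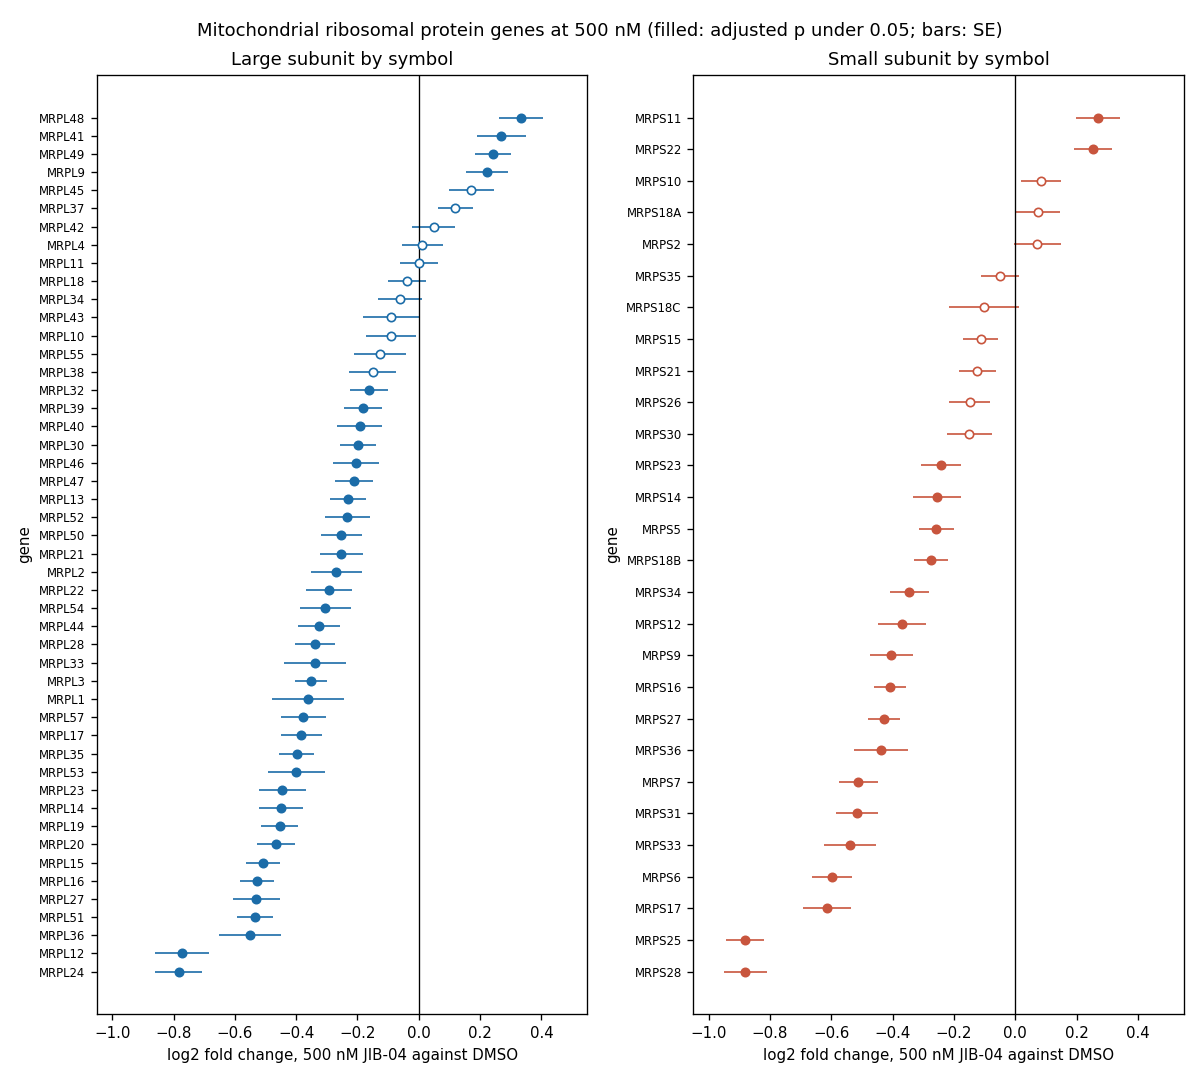
Log2 fold change at 500 nM JIB-04 against DMSO (x axis) of the mitochondrial ribosomal protein genes, ordered by size, with MRPL symbols on the left and MRPS symbols on the right. Bars are SEs and filled points have an adjusted p under 0.05; MRPS24, with 8 to 34 counts per library, is not drawn. Most filled points lie left of 0, down to -0.88 for MRPS28 and MRPS25, and the 6 filled points on the right reach 0.33 for MRPL48. Under scaling by total counts 32 genes were lower and 12 higher, beside 2514 and 5716 of all 15089 tested genes.

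The subunits moved to a similar extent. Of the large subunit symbols 33 of 48 fell and 4 rose, with a median log2 fold change of -0.25, and of the small subunit symbols 17 of 29 fell and 2 rose, with a median of -0.27. Both stand beside 25.6% of all tested genes called lower and 26.3% called higher. The median over large subunit genes of the log2 CPM, each gene taken relative to its DMSO mean, was -0.01, 0.03 and -0.03 in the DMSO libraries, -0.04, -0.05 and -0.05 at 150 nM and -0.20, -0.26 and -0.28 at 500 nM. Small subunit genes had medians of -0.02, 0.02 and -0.01 in DMSO, -0.05, -0.03 and -0.02 at 150 nM and -0.26, -0.29 and -0.32 at 500 nM. Every 500 nM library was thus below every other library for both subunits, and the 150 nM libraries lay close to those of DMSO. Over all tested genes the same quantity stayed between -0.01 and 0.02 in the 9 libraries. The TMM scaling largely sets that flat median, so it is a reference and not a finding. Under scaling by total counts the median log2 fold change of all genes at 500 nM against DMSO was 0.15. The summed CPM per kilobase of the small subunit genes was 0.533 ± 0.00505 times that of the large subunit genes in DMSO (SD, n = 3), 0.533 ± 0.00717 times at 150 nM and 0.514 ± 0.00855 times at 500 nM. The 500 nM values of this ratio, 0.505 to 0.521, were below the 6 other values, 0.527 to 0.541, and the difference was not tested because the ratio is a score over the chosen genes.

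**Figure D2:**
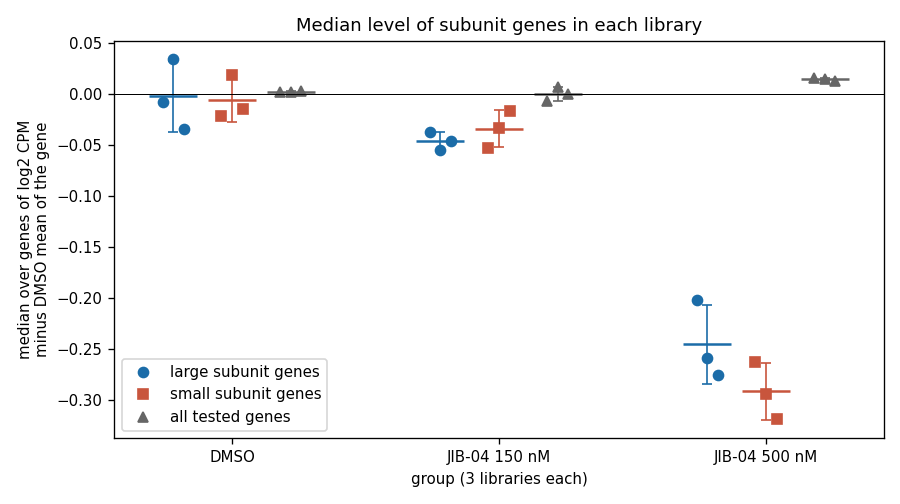
Median over genes of log2 CPM minus the gene's DMSO mean (y axis) in each of the 9 libraries, by group (x axis), for large subunit genes, small subunit genes and all tested genes; points are libraries, and lines and bars are the mean and SD of 3. At 500 nM the large subunit lies between -0.28 and -0.20 and the small subunit between -0.32 and -0.26. All tested genes stay between -0.01 and 0.02, which the TMM scaling largely sets.

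A few genes name proteins that structures place elsewhere than their symbol does. MRPS30 and MRPS18A are built into the large subunit, and MRPS36 has been assigned to the 2-oxoglutarate dehydrogenase complex. With genes placed by structure, and with 6 proteins that carry other symbols added, 33 of 52 large subunit genes fell and 4 rose, and 19 of 30 small subunit genes fell and 2 rose. The medians were -0.23 and -0.27. Among all tested genes 25.6% were called lower and 26.3% higher.

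MRPS28 and MRPS25 fell the most. MRPS28, a small subunit protein, had 90.2, 111 and 94.0 CPM in the DMSO libraries, 91.4, 93.4 and 91.3 CPM at 150 nM and 56.5, 50.7 and 53.0 CPM at 500 nM. The 500 nM libraries were below all others, and the log2 fold change against DMSO was -0.88 (SE 0.07, adjusted p = 2.49e-11). MRPS25, a small subunit protein without a bacterial counterpart, had 133, 128 and 119 CPM in DMSO, 109, 110 and 99.6 CPM at 150 nM and 73.5, 65.6 and 67.3 CPM at 500 nM. Its 3 groups did not overlap, and it was the only one of the 77 called at 150 nM, with log2 fold changes of -0.26 (SE 0.06, adjusted p = 0.0291) at 150 nM and -0.88 (SE 0.06, adjusted p = 2.44e-12) at 500 nM against the same DMSO libraries.

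The call of MRPS25 at 150 nM was lost without DMSO replicate 1 (adjusted p = 0.154), without DMSO replicate 2 (0.160), without 150 nM replicate 2 (0.0809), without 150 nM replicate 3 (0.187) and in a fit of only the 6 libraries compared (0.0811). Its log2 fold change stayed between -0.28 and -0.22 in these fits. At 500 nM its call held under all 20 alternatives run.

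In the large subunit, MRPL24 and MRPL12 fell the most. MRPL24 counterparts in bacteria bind early in large subunit assembly, and MRPL24 had 43.1, 51.0 and 44.8 CPM in DMSO, 43.0, 41.0 and 44.2 CPM at 150 nM and 27.0, 26.0 and 27.5 CPM at 500 nM. Its log2 fold change at 500 nM was -0.78 (SE 0.08, adjusted p = 1.58e-09), and the 500 nM libraries were below all others. MRPL12 is the protein of the flexible stalk that recruits translation factors, and it had 60.1, 70.3 and 53.2 CPM in DMSO, 65.3, 53.8 and 55.1 CPM at 150 nM and 35.2, 37.4 and 34.6 CPM at 500 nM. MRPL12 was spread widely among the DMSO libraries, yet all 3 at 500 nM were lower than any other, with a log2 fold change of -0.77 (SE 0.09, adjusted p = 3.62e-08).

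Its partners in and beside the stalk gave other values. MRPL10, which anchors MRPL12, had 43.4, 35.6 and 43.5 CPM in DMSO, 39.1, 40.9 and 39.6 CPM at 150 nM and 40.3, 35.2 and 39.7 CPM at 500 nM, with a log2 fold change at 500 nM of -0.09 (SE 0.08, adjusted p = 0.364). MRPL11, a protein of the stalk base, had 95.8, 98.1 and 91.2 CPM in DMSO, 94.8, 85.4 and 94.7 CPM at 150 nM and 91.1, 101 and 92.6 CPM at 500 nM, with a log2 fold change of 0.00023 (SE 0.06, adjusted p = 0.998). The groups overlapped for both genes, and the difference between their changes and that of MRPL12 was not tested.

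**Figure D3:**
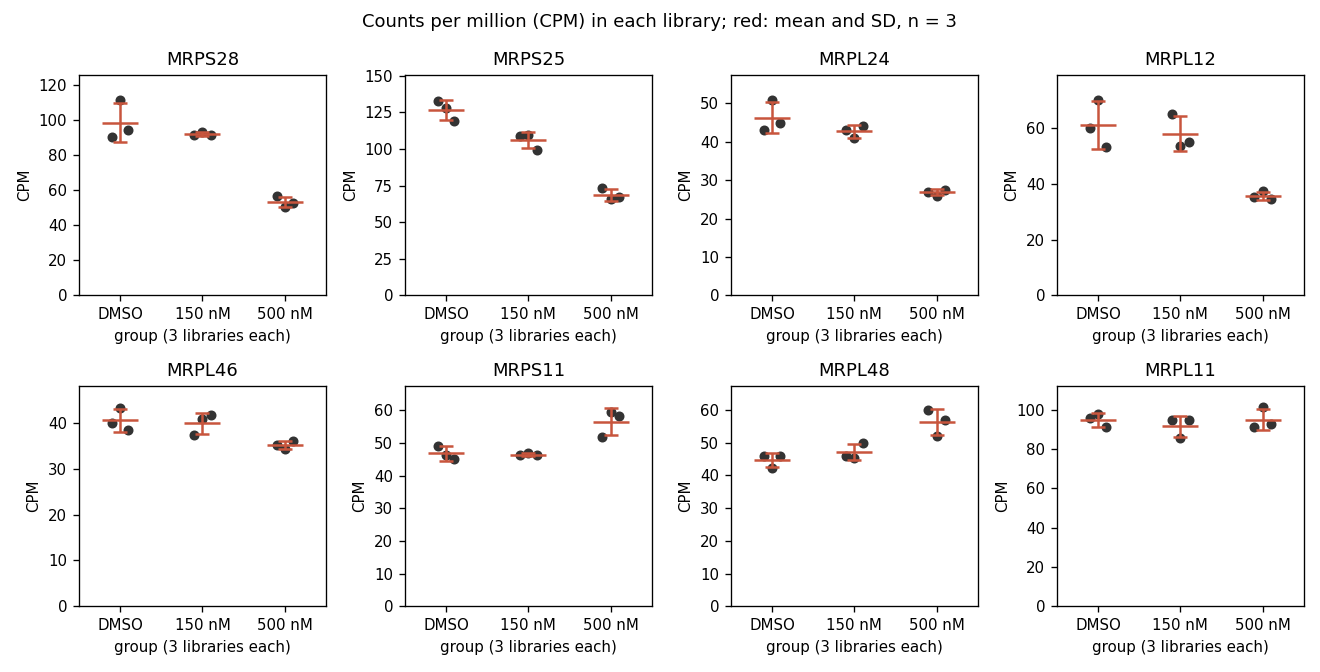
CPM (y axis, from 0) in each library of DMSO, 150 nM and 500 nM JIB-04 (x axis) for 8 mitochondrial ribosomal protein genes; points are libraries, and red marks are the mean and SD of 3. MRPS28, MRPS25, MRPL24 and MRPL12 are lower at 500 nM than in any other library, MRPL46 is lower by less, MRPS11 and MRPL48 are higher, and MRPL11 overlaps between the groups.

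The next falls in the large subunit were those of MRPL36 and MRPL51. MRPL36, one of the smallest proteins of the subunit, had 22.4 ± 2.46 CPM in DMSO (SD, n = 3), 20.3 ± 2.01 CPM at 150 nM and 15.3 ± 1.29 CPM at 500 nM (log2 fold change -0.55, SE 0.10, adjusted p = 4.5e-05). MRPL51, among the 3 highest at baseline, had 173, 197 and 178 CPM in DMSO, 166, 165 and 178 CPM at 150 nM and 131, 128 and 119 CPM at 500 nM (log2 fold change -0.53, SE 0.06, adjusted p = 1.09e-08). The other abundant large subunit genes fell too, MRPL15 with a log2 fold change of -0.51 (SE 0.05) and MRPL3 with one of -0.35 (SE 0.05). For each of these genes the 500 nM libraries were below all others.

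In the small subunit, MRPS17 and MRPS6 followed, both counterparts of bacterial proteins that bind the small subunit RNA. MRPS17 had 47.0, 54.3 and 54.7 CPM in DMSO, 45.2, 53.2 and 48.2 CPM at 150 nM and 34.5, 34.3 and 32.9 CPM at 500 nM (log2 fold change -0.61, SE 0.08, adjusted p = 1.5e-07). MRPS6 had 60.6, 63.0 and 62.2 CPM in DMSO, 60.0, 58.8 and 64.3 CPM at 150 nM and 41.5, 41.0 and 40.1 CPM at 500 nM (log2 fold change -0.60, SE 0.07, adjusted p = 1.34e-08). Neither gene had a 500 nM library that reached those of the other groups.

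MRPS12, the counterpart of the bacterial decoding-centre protein S12, had a log2 fold change of -0.37 (SE 0.08, adjusted p = 0.000265) and fell. MRPS34, a small subunit protein without a bacterial counterpart, fell as well, with a log2 fold change of -0.35 (SE 0.06, adjusted p = 4.25e-05). MRPS36 fell from 29.6 ± 1.88 CPM in DMSO to 21.8 ± 1.68 CPM at 500 nM (SD, n = 3), with a log2 fold change of -0.44 (SE 0.09, adjusted p = 0.000149). MRPL57, which older tables list as MRP63, had a log2 fold change of -0.38 (SE 0.07, adjusted p = 8.57e-05). The MRPL1 call, at a log2 fold change of -0.36 (SE 0.12, adjusted p = 0.0112), was lost without DMSO replicate 2 (adjusted p = 0.126) and under scaling by total counts (adjusted p = 0.111).

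The 3 relatives of the bacterial protein S18 differed in their calls. MRPS18B fell, from 113.6 ± 2.33 CPM in DMSO to 94.0 ± 2.80 CPM at 500 nM (SD, n = 3), with a log2 fold change of -0.27 (SE 0.06, adjusted p = 0.000146). MRPS18A, the relative in the large subunit, had 42.3 ± 1.91 and 44.5 ± 1.81 CPM, with a log2 fold change of 0.08 (SE 0.07, adjusted p = 0.402). MRPS18C had 11.3 ± 0.708 and 10.5 ± 1.35 CPM, with a log2 fold change of -0.10 (SE 0.11, adjusted p = 0.476). Differences between the 3 changes were not tested. MRPS30 also missed the threshold, with a log2 fold change of -0.15 (SE 0.07, adjusted p = 0.0891), and MRPS24 did with one of -0.42 (SE 0.52).

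The 6 genes that rose at 500 nM were MRPL48, MRPL41, MRPL49 and MRPL9 in the large subunit and MRPS11 and MRPS22 in the small subunit. MRPL48 had 45.8, 42.3 and 46.0 CPM in DMSO, 46.0, 45.2 and 49.8 CPM at 150 nM and 60.1, 52.1 and 56.9 CPM at 500 nM (log2 fold change 0.33, SE 0.07, adjusted p = 0.000315). MRPS11, the counterpart of a bacterial protein of the small subunit platform, had 49.2, 46.3 and 44.9 CPM in DMSO, 46.2, 46.8 and 46.3 CPM at 150 nM and 51.8, 59.5 and 58.1 CPM at 500 nM (log2 fold change 0.27, SE 0.07, adjusted p = 0.00208). MRPL49 had 83.9, 84.3 and 78.9 CPM in DMSO, 86.5, 79.6 and 78.9 CPM at 150 nM and 98.3, 96.1 and 97.6 CPM at 500 nM (log2 fold change 0.24, SE 0.06, adjusted p = 0.00121). In these 3 genes the 500 nM libraries were above all others, and the 150 nM and DMSO libraries overlapped.

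MRPS22, in which inherited mutations cause a disorder of mitochondrial translation, had 58.0, 59.5 and 62.1 CPM in DMSO, 63.7, 61.7 and 67.4 CPM at 150 nM and 72.9, 70.3 and 70.8 CPM at 500 nM (log2 fold change 0.25, SE 0.06, adjusted p = 0.00133). Its libraries at 500 nM were above all others. MRPL41 had 43.5, 40.9 and 35.3 CPM in DMSO and 47.6, 51.5 and 45.2 CPM at 500 nM, with a log2 fold change of 0.27 (SE 0.08, adjusted p = 0.00548). Its rise depended on the processing: with each library's trend on the GC content of genes removed the log2 fold change was -0.12 (adjusted p = 0.113), and without DMSO replicate 3 it was 0.18 (adjusted p = 0.0633). MRPL9 rose by 0.22 on the log2 scale (SE 0.07, adjusted p = 0.0089), and lost its call without DMSO replicate 2 (adjusted p = 0.0666).

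The genome places 1 riser beside a gene that fell. MRPS11 and MRPL46 lie head to head, with 320 bases between their RefSeq start sites, and MRPL46 had 40.0, 43.3 and 38.5 CPM in DMSO, 37.3, 40.8 and 41.7 CPM at 150 nM and 35.2, 34.4 and 36.0 CPM at 500 nM. MRPL46 was lower at 500 nM than in any other library (log2 fold change -0.20, SE 0.07, adjusted p = 0.023), whereas MRPS11 was higher than in any other. This pair was singled out after its values were seen.

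Counts may mix neighbouring genes. The strand rule of the counting was not given in the sources used here, and the GENCODE 29 exons of 27 of the 77 genes overlap those of another gene that the table lists by the same symbol, for 22 of them on the opposite strand. Among the genes above these are MRPS25 (with NR2C2), MRPS22 (with COPB2), MRPL51 (with NCAPD2), MRPL49 (with FAU), MRPL9 (with OAZ3), MRPL11 (with PELI3), MRPS12 (with SARS2), MRPS18A (with RSPH9) and MRPS6 (with SLC5A3, on the same strand). The part of such reads in the changes was not tested. The table also lists the copies MRPL42P5, MRPL45P2 and MRPS31P5, of which MRPS31P5 held 392 to 1276 counts per library beside 2028 to 3292 for MRPS31.

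At 150 nM against DMSO, MRPS25 fell and none of the 77 rose, beside 1.27% of all tested genes called (0.318% lower and 0.954% higher). Their median log2 fold change was -0.04, beside -0.0033 over all tested genes. Values below 0 were found for 58 of the 77, beside 7701 of all 15089 tested genes. Without DMSO replicate 2 the median of the 77 was -0.019. At an unadjusted p under 0.05 there were 5 of the 77, beside 1572 of all 15089 tested genes. The libraries did not overlap for 9 genes that were lower and for 0 that were higher, beside 7.32% and 6.41% of all tested genes. Without 150 nM replicate 1, 1 large subunit gene was called higher.

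**Figure D4:**
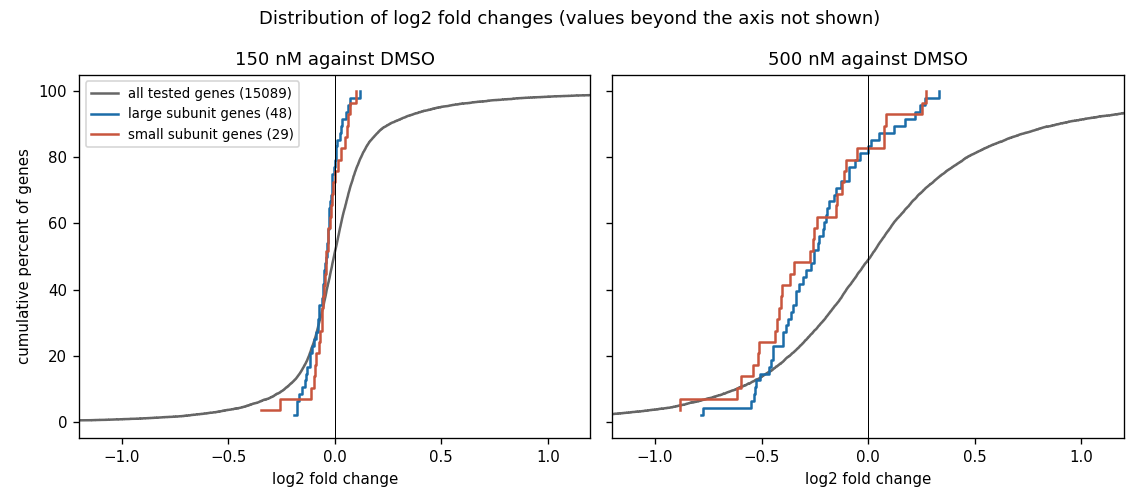
Cumulative percent of genes (y axis) by log2 fold change (x axis) at 150 nM and at 500 nM against DMSO, for all 15089 tested genes, 48 large subunit genes and 29 small subunit genes. At 500 nM both subunit curves lie left of that of all genes around the median (-0.25 and -0.27 against 0.01), and their values run from -0.88 to 0.33.

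At 500 nM against 150 nM, 44 of the 77 genes fell and 5 rose, beside 46.5% of all tested genes called (22.8% lower and 23.7% higher), and their median log2 fold change was -0.21. Scaling by total counts moved the median of all genes from 0.0093 to 0.13. Under it 28 of the 77 fell and 11 rose, with a median of -0.087. Of all 15089 tested genes, 2137 (14.2%) were then called lower and 5257 higher. The higher share of all calls went from 50.9% to 71.1%. The median of the 77 minus that of all genes was -0.22 under both scalings. With TMM scaling, all 44 were among the 50 that fell against DMSO. The 5 that rose included 4 of the 6 that rose against DMSO. In the large subunit 27 fell and 4 rose, and in the small subunit 17 fell and 1 rose. The largest falls were those of MRPS28 (log2 fold change -0.79, SE 0.07), MRPL12 (-0.70, SE 0.09) and MRPL24 (-0.67, SE 0.08). The largest rises were those of MRPL41 (0.30, SE 0.08), MRPS11 (0.28, SE 0.07) and MRPL48 (0.26, SE 0.07), and that of MRPL41 became -0.07 with the GC trend removed. For MRPS22 the value was 0.15 (SE 0.06, adjusted p = 0.0502).

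Most of the change in the median of the 77 genes lay between 150 and 500 nM (-0.21, beside -0.04 from DMSO to 150 nM). Calls over all tested genes were also few at 150 nM, 1.27% beside 52% at 500 nM, each against DMSO. Of the 50 genes that fell against DMSO, 43 had their means in the order DMSO, 150 nM, 500 nM from high to low. In 48 the mean at 150 nM was nearer to that of DMSO than to that of 500 nM. The 50 were chosen by their difference between DMSO and 500 nM, which favours such an order. The same counts were not made for all genes that fell.

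Genes with a bacterial counterpart and genes specific to mitochondria were set side by side, using the structure-based protein names. Of 46 genes with a bacterial counterpart, 32 fell and 2 rose at 500 nM against DMSO, and the median log2 fold change was -0.34. Of 30 genes specific to mitochondria, 17 fell and 4 rose, with a median of -0.20, and MRPS36 was counted in neither. Among all tested genes 25.6% were called lower and 26.3% higher. Among the large subunit symbols the medians were -0.34 for 30 genes and -0.19 for 18, and among the small subunit symbols -0.31 for 16 genes and -0.26 for 12. The genes are not replicates, so this difference has no test.

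Across 76 genes, MRPS24 left out, the log2 fold change at 500 nM against DMSO correlated weakly and negatively with the baseline log2 CPM per kilobase (Pearson r = -0.231, Spearman rho = -0.243). With GC content of the transcript the values were r = 0.109 and rho = 0.0982, and with log2 transcript length r = 0.117 and rho = 0.177. These are descriptions, since all genes share the same libraries and the baseline enters the fold change.

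The 6 mitochondrial ribosomal proteins with other symbols gave 3 falls and no rise at 500 nM, with a median of -0.20. The share called was near the 52% of all tested genes (25.6% lower and 26.3% higher). DAP3, a GTP-binding protein of the small subunit, had 241, 225 and 229 CPM in DMSO, 220, 215 and 229 CPM at 150 nM and 172, 166 and 175 CPM at 500 nM (log2 fold change -0.44, SE 0.05, adjusted p = 3.7e-08), with every 500 nM library below the others. PTCD3, a pentatricopeptide-repeat protein of the small subunit, fell by 0.26 on the log2 scale (SE 0.05, adjusted p = 0.000105). CHCHD1 had a log2 fold change of -0.26 (SE 0.09, adjusted p = 0.0148), which lost its call without DMSO replicate 2 (adjusted p = 0.153), without 500 nM replicate 1 (0.0804) and under scaling by total counts (0.268). The large subunit proteins ICT1, a peptidyl-tRNA hydrolase, and GADD45GIP1 had values of 0.11 (SE 0.08, adjusted p = 0.216) and -0.14 (SE 0.07, adjusted p = 0.0949), and AURKAIP1 had one of -0.03 (SE 0.07, adjusted p = 0.729). With the GC trend removed, AURKAIP1 (adjusted p = 4.32e-06) and GADD45GIP1 (adjusted p = 0.00135) passed the test. Over all settings the value of AURKAIP1 ran from -0.28 to 0.11. ICT1 gained a call under scaling by total counts and with totals without the 20 most abundant genes.

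Genes that act on the mitochondrial ribosome were set beside the 52% of all tested genes called at 500 nM against DMSO (25.6% lower and 26.3% higher). Of 25 assembly factors 12 fell and 4 rose at 500 nM against DMSO, and the median log2 fold change was -0.16. FASTKD2, an RNA-binding protein needed for the large subunit RNA, had a value of -0.51 (SE 0.06, adjusted p = 1e-07), and C1QBP, a matrix protein, one of -0.48 (SE 0.05, adjusted p = 1.35e-08). In the other direction, NGRN, part of the same RNA-binding module as FASTKD2 in the large subunit pathway, had a value of 0.52 (SE 0.06, adjusted p = 3.24e-08), and NSUN4, which pairs the subunits during assembly, one of 0.47 (SE 0.08, adjusted p = 1.69e-05). Both directions thus occurred within the assembly list.

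None of 16 mitochondrial translation factors rose and 9 fell, with a median of -0.25. TUFM, the elongation factor that delivers aminoacyl-tRNA, had 337, 338 and 320 CPM in DMSO, 319, 302 and 309 CPM at 150 nM and 247, 261 and 251 CPM at 500 nM (log2 fold change -0.39, SE 0.05, adjusted p = 1.34e-07), with no overlap between 500 nM and the other groups. SLIRP, which stabilises mitochondrial mRNA, had a value of -0.65 (SE 0.06, adjusted p = 4.66e-10), and the ribosome recycling factor MRRF one of -0.56 (SE 0.08, adjusted p = 9.07e-07). Of 15 genes for the replication, transcription and RNA processing of mitochondrial DNA, 9 fell and none rose, with a median of -0.22. TRMT10C and ELAC2, which take part in cutting tRNAs out of the mitochondrial transcripts, had values of -0.84 (SE 0.08, adjusted p = 2.85e-09) and -0.59 (SE 0.05, adjusted p = 3.89e-10). RNAs encoded by mitochondrial DNA itself were not analysed here.

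Among 8 tested transcription factors and coactivators known to act on mitochondrial genes, 3 fell and 1 rose, a share called near the 52% of all tested genes. The coactivators PPARGC1B and PPRC1 fell by 0.55 (SE 0.09, adjusted p = 4.52e-06) and by 0.49 (SE 0.08, adjusted p = 9.11e-06) on the log2 scale. NRF1, nuclear respiratory factor, had 42.6, 47.9 and 42.7 CPM in DMSO and 34.7, 35.2 and 39.9 CPM at 500 nM (log2 fold change -0.28, SE 0.08, adjusted p = 0.00599), a call lost under scaling by total counts (adjusted p = 0.164). MYC rose, from 336 ± 17.2 to 405 ± 8.01 CPM (SD, n = 3), with a log2 fold change of 0.27 (SE 0.05, adjusted p = 3.48e-05). GABPA, of the ETS family, and YY1 did not pass the test, with values of -0.16 (SE 0.08, adjusted p = 0.106) and -0.07 (SE 0.06, adjusted p = 0.338). GABPA was called lower in 7 of the 20 alternatives, with values of -0.22 to -0.02 over all settings. YY1 stayed uncalled in all 20.

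Other gene families of ribosomes and mitochondria gave values of the same order. Of 38 NDUF genes, which encode subunits of respiratory complex I, 26 fell and 2 rose at 500 nM against DMSO, with a median of -0.28. Of 79 tested genes for proteins of the cytosolic ribosome 67 fell and 2 rose, with a median of -0.31. Both families stand beside 25.6% of all tested genes called lower and 26.3% called higher. No test of the difference between these families and the mitochondrial ribosomal protein genes was made.

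**Figure D5:**
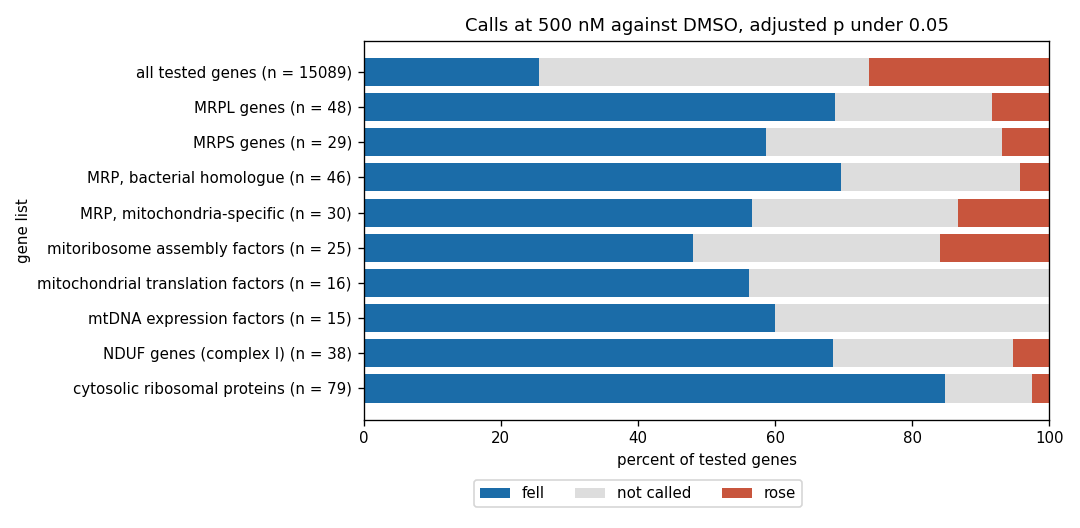
Percent of tested genes (x axis) that fell, were not called or rose at 500 nM JIB-04 against DMSO, by gene list (y axis), at an adjusted p under 0.05. All tested genes show 25.6% lower and 26.3% higher, while 33 of 48 MRPL genes, 17 of 29 MRPS genes, 26 of 38 NDUF genes and 67 of 79 cytosolic ribosomal protein genes were lower.

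Promoter letters were examined because so many of the genes moved together. RefSeq start-site windows (GRCh38.p14), reaching from 250 bases before to 50 bases after the start, were found for 68 of the 77 genes. They were found for 10465 of the 15089 tested genes. Without a window were, among others, MRPS28, which fell the most, MRPL15, MRPL10 and MRPS36, so the counts below do not cover them. Searching both strands, the letters CCGGAAG, which members of the ETS family bind, were in 29 of the 68 (42.6%), in 21.1% of the windows of tested genes and in 12.2% of all windows of that length. The letters AAGATGGC, the core of the YY1 motif, were in 21 (30.9%), against 6.13% of tested genes and 3.52% of all. Both were in 8 windows (11.8%), against 0.762% of all. The share with both was not computed for tested genes, which held each motif more often than all genes did. These motifs were chosen with the values known, and a match is a description of letters.

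Windows of 30 bases show the ETS-type letters in capitals, CCGGAAG or its reverse complement, in 4 genes that fell, 2 that rose and 1 that did not pass the test. They are written on the strand of the gene and were picked to cover the 3 outcomes.
MRPL51 (fell, chr12:6493364-6493393, minus strand): ggcgctccaaaaCTTCCGGcaggcggaccg
MRPL16 (fell, chr11:59810767-59810796, minus strand): gagtgaacacaaCTTCCGGccccactgagc
MRPL27 (fell, chr17:50373219-50373248, minus strand): gccacgcagggcCCGGAAGtagatctcctg
MRPS31 (fell, chr13:40771205-40771234, minus strand): gaaggcgccaggCCGGAAGcggaagagagg
MRPL48 (rose, chr11:73787799-73787828, plus strand): gaatttcagaagCTTCCGGaactaaaatga
MRPS22 (rose, chr3:139343895-139343924, plus strand): atctataagggcCCGGAAGacttccggccc
MRPS10 (not called, chr6:42217866-42217895, minus strand): gccgctgtaaccCCGGAAGcaatcctgaga

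The same letters thus stood before genes of every outcome. They were in 19 of 42 genes that fell, in 2 of 6 that rose and in 8 of 20 that did not pass the test, and in 22 of the 29 the match began within 100 bases before the start site.

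The YY1-type letters, AAGATGGC or its reverse complement in capitals, lay mostly just after the start site. In 17 of the 21 genes the match was on the strand of the gene, 16 of these within the first 50 bases after the start, and in 13 the ATG inside it is an annotated start codon of GENCODE 29.
MRPL51 (fell, chr12:6493223-6493252, minus strand): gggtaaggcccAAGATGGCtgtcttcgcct
MRPS7 (fell, chr17:75261887-75261916, plus strand): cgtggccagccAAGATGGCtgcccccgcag
MRPL46 (fell, chr15:88467362-88467391, minus strand): tgggagaacgaAAGATGGCggcgcccgtaa
MRPL36 (fell, chr5:1799854-1799883, minus strand): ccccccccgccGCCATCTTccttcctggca
MRPL49 (rose, chr11:65122333-65122362, plus strand): cgtagcaggtaAAGATGGCagctaccatgt
MRPS30 (not called, chr5:44808949-44808978, plus strand): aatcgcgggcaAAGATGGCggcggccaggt

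By outcome, 13 of 42 genes that fell, 1 of 6 that rose and 7 of 20 that did not pass the test held these letters. Of the genes shown, MRPL51 and MRPS10 held both kinds of match.

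The upstream sequence of the gene called at both doses and that of a gene that rose are shown in full as far as no annotated exon lies in them, since the pair differ in these letters.
MRPS25 (fell, chr3:15065336-15065565, minus strand): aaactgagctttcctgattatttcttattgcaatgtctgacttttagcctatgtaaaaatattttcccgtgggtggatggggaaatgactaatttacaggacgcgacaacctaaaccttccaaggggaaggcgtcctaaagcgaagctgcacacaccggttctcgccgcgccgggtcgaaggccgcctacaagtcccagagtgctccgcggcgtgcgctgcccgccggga
MRPS22 (rose, chr3:139343744-139343955, plus strand): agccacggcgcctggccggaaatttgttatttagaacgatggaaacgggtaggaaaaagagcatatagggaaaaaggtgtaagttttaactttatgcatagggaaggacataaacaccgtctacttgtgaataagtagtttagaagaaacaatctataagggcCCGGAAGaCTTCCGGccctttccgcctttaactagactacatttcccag

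The 230 bases shown for MRPS25 hold neither motif, and the 212 bases for MRPS22 hold the ETS-type letters on both strands, in capitals, separated by a single base. MRPS25 fell by 0.88 and MRPS22 rose by 0.25 on the log2 scale at 500 nM. The pair was picked for its difference and does not stand for the other genes. Over all windows the ETS-type letters were in 45.2% of the genes that fell and 33.3% of those that rose. The windows of MRPL9, MRPS11 and MRPL41, which also rose, held neither motif. Among the largest falls, MRPL24, MRPL12, MRPS17 and MRPS6 held neither as well. MRPL36 held the YY1-type letters and MRPL51 held both. A link between the letters and the direction was not tested.

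Further letters were searched in the same windows. GCATGCGC, of the NRF1 motif, was in 6 of the 68 windows (8.82%, against 6.35% of tested genes), and the E-box CACGTG in 9 (13.2%, against 12.3%). TGATGNAA, of the amino acid response element, was in 1 (1.47%, against 2.9%), and the GC box GGGCGG in 41 (60.3%, against 73.2%).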

How the data were processed

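The authors deposited a table of raw read counts by gene symbol. Tools in the submitters' processing notes are featureCounts 1.4.6, Subread, Bowtie2 2.2.6 and TopHat2 2.0.14, and builds mm10 and hg19, with no roles; annotation and strand rule were not given in the sources used here. Depth was 28476845 to 57198613 counts per library. Titles of the samples give group and replicate.

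Low counts were removed with filterByExpr (at least 10 counts, total 15), the rest scaled by TMM and fitted with edgeR 4.0.16 (robust quasi-likelihood, all 9 libraries, no covariates) in R 4.3.3. P-values were adjusted by Benjamini-Hochberg over 15089 genes and called under 0.05. Adjusted p-values of genes come from this test, save those given for a named alternative. The latter come from that refit, adjusted over the genes it tested. SEs are the unshrunk log2 fold change over the root of F. CPM use TMM-scaled totals, and per-library log2 values a prior count of 2. Transcript length and GC are those of the GENCODE 29 (GRCh38) principal transcript of median length, chosen after the longest transcript of MRPL42 was seen to be extreme; promoter windows are RefSeq's. The counts' build differs, so no coordinates of counted genes are given. Replicates differed beyond sampling noise (chi-square per degree of freedom 6.59 to 16.05) and were kept apart. The fit was tested on simulated data.

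The genes and lists were chosen with earlier results of these data known. Named genes are the 4 largest called rises and falls of each subunit at 500 nM, up to 3 per direction in the other comparisons, the 3 highest and lowest levels, up to 2 per direction of each other list, and fixed genes; MRPL46, MRPS7, MRPL16, MRPL27, MRPS31, MRPS10 and, for their copies or exon partners, a few others were named after their values were seen. Alternatives were DESeq2 1.42.0, limma-voom (limma 3.58.1), other scalings and filters, 6 libraries only, a replicate block, removal of GC or length trends (lowess span 0.3, on the 95.7% of tested genes with a length), and leaving out each library. Part of the marker lists is not reported here.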

Additional observations from a re-analysis of the deposited data

How the results depend on the processing

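Of 438 values for the summary results under the alternatives, 383 stayed within their limits and 55 moved. None of the medians or per-library levels among them was labelled reversed. Counts of called genes could only be labelled as the same or moved. Of 2337 values for named genes, 2256 kept their side of the threshold, counting genes called in neither fit whatever their sign, 26 lost a call, 53 gained one and 2 reversed. The reversed values were those of MRPL41 with the GC trend removed, -0.12 at 500 nM against DMSO and -0.068 against 150 nM; the cause was not tested. At 500 nM against DMSO the median of the mitochondrial ribosomal protein genes minus that of all tested genes was -0.32 to -0.25 over all settings.

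Scaling by total counts changed the most at 500 nM. Of all 15089 tested genes it gave 2514 lower and 5716 higher against DMSO, and 2137 lower and 5257 higher against 150 nM. Against DMSO, 18 large subunit genes fell and 7 rose, 5 small subunit genes rose, and the medians were -0.11 (large) and -0.13 (small); the mean per-library differences from DMSO were -0.10 and -0.15. Against 150 nM, 14 large subunit genes fell and 7 rose, 4 small subunit genes rose, and the medians were -0.084 and -0.10. Totals without the 20 most abundant genes, run with no TMM factor and so differing from the main analysis in both respects, gave 18 falls and 7 rises in the large subunit, 5 rises in the small subunit and medians of -0.12 and -0.14 against DMSO. Against 150 nM they gave 15 falls, 7 rises, 4 small subunit rises and medians of -0.087 and -0.11. Of all tested genes they gave 2559 lower and 5641 higher against DMSO, and 2169 lower and 5211 higher against 150 nM.

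With the GC trend removed the small subunit medians were -0.31 against DMSO and -0.26 against 150 nM. With the length trend removed the large subunit medians were -0.20 and -0.18, and the small subunit median against 150 nM was -0.25. In limma-voom that last median was -0.28. The small subunit had 2 rises at 500 against 150 nM with the GC trend removed, with the length trend removed, in limma-voom, in DESeq2, with the filter of 1 CPM in 3 libraries and with the replicate block.

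At 150 nM against DMSO, 192 genes of all tested were called, against 320 with no filter, 101 in the fit of 6 libraries (0 of the small subunit), 308 with the replicate block, 360 with the GC trend removed and 290 in DESeq2. The replicate block raised the count at 500 nM against DMSO from 7843 to 8133. Correlations of the libraries' deviations were low, at -0.0525 to 0.104 for the same number and -0.0829 to 0.0352 for different numbers. Between DMSO and 150 nM they were 0.0126 to 0.104 for the same number and -0.0829 to 0.00814 for different numbers. Whether the numbers pair the libraries was not tested.

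Leaving out each library in turn gave 98 to 545 genes called at 150 nM, 7053 to 8230 at 500 nM against DMSO and 6062 to 7199 at 500 against 150 nM. At 150 nM it gave 0 to 1 rises in the large subunit, 0 to 1 falls in the small subunit, and medians of -0.051 to -0.022 (large) and -0.051 to -0.012 (small). At 500 nM against DMSO, 28 to 33 large and 17 to 18 small subunit genes fell and 3 to 5 and 2 rose, with medians of -0.27 to -0.22 and -0.32 to -0.27. At 500 against 150 nM, 22 to 28 and 16 to 18 fell and 3 to 5 and 1 to 2 rose, with medians of -0.21 to -0.18 and -0.32 to -0.21. Depth limits MRPS24, at 8 to 34 counts per library.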
